A study of Mus musculus with 8 samples.

Results

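The collagen genes of the mouse, taken as every listed gene whose symbol reads Col, a number, a and a number, numbered 44 of the 21058 genes quantified in pachytene spermatocytes from Arid1a WT and Arid1a cKO testes. Of these, 43 reached 10 counts summed over the 8 libraries and were tested; Col10a1, the network collagen of hypertrophic cartilage, had 1 count in all. There were 4 libraries of each genotype. The comparison asked which collagen transcripts were more or less abundant where ARID1A was lost from the male germline. ARID1A is a putative DNA-binding subunit of the BAF class of SWI/SNF chromatin remodelling complexes. The Arid1a cKO mice were Arid1a fl/fl and carried 1 copy of Stra8-Cre, a transgene active from premeiotic germ cells onward. Arid1a WT mice were either Arid1a fl/fl or Arid1a fl/+, without Cre. The floxed line was kept on a CD1 background. Cells came from the testes of at least 12 pooled males older than 60 days per purification, were separated by sedimentation at unit gravity (Sta-Put) and, by light microscopy, were over 80% pachytene spermatocytes. Stra8-Cre excises incompletely, and cells that keep ARID1A stay in the mutant fractions. RNA was extracted in quadruplicate from frozen cell pellets, and whether each pellet came from its own set of males is not given in the sources used here, so p-values measure the spread between these preparations.

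Collagens are secreted or membrane-bound proteins in which 3 chains wind into a triple helix, which requires glycine as the first residue of each Gly-X-Y repeat. The fibrillar types build the tensile fibres of connective tissue, type IV forms the sheet-like network of basement membranes such as the one beneath the seminiferous epithelium, type VI forms beaded microfilaments, and the FACIT types decorate the surface of fibrils. In the testis, collagen RNA is known mainly from the somatic cells of the tubule wall and interstitium.

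The glycine repeat is shown for 4 genes on which the results below turn, namely the 2 most abundant members, the one with the largest rise and a fibrillar gene that fell. Each line gives 10 consecutive triplets (90 bases) of coding sequence from the GENCODE M21 transcripts (GRCm38), with the first pair of bases of the glycine codon that opens each triplet in capitals.
Col22a1: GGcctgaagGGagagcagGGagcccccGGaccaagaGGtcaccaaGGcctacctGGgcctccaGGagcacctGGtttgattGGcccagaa
Col16a1: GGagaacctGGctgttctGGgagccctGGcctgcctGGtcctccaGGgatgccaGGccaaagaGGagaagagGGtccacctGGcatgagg
Col6a4: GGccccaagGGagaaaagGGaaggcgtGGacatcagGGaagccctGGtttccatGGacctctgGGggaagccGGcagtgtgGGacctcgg
Col3a1: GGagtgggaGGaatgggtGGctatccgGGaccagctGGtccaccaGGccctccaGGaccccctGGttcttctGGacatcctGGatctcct

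The Col22a1 stretch lies on the minus strand at chr15:71933445-71937604, in exons 20 to 22 of Col22a1-201, and is also part of the short non-coding transcript Col22a1-203. The Col16a1 stretch spans exons 47 and 48 of Col16a1-201 at chr4:130079646-130080593 on the plus strand. The Col6a4 stretch spans exons 19 and 20 of Col6a4-201 at chr9:106033929-106040607 on the minus strand, and the Col3a1 stretch spans exons 5 and 6 of Col3a1-201 at chr1:45323762-45325413 on the plus strand. The longest unbroken glycine repeat held 344 triplets in Col3a1-201, 113 in Col22a1-201, 62 in Col22a1-203, 52 in Col16a1-201 and 45 in Col6a4-201.

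Library totals ran from 15850961 to 22044507 estimated counts. Arid1a itself stood at 105, 129, 121 and 98.8 CPM, a gene's count per fixed number of counted reads, in WT and at 76.4, 81.0, 82.9 and 78.3 CPM in cKO, a log2 fold change of -0.51 ± 0.07 (SE; edgeR quasi-likelihood test, Benjamini-Hochberg adjusted p = 2.3e-05). The groups did not overlap, but the excision removes only part of the transcript, so reads from the other exons remain in both genotypes. For the marker lists that follow, the shares over all 17643 tested genes were 36.5% called higher and 37.5% called lower in cKO. Of 12 pachytene spermatocyte markers, 8 were lower and 3 higher in cKO. Their summed level went from 8292 to 9366 TPM (a measure per transcript length) in WT to 6341 to 6677 TPM in cKO. All 17 spermatid markers, protamines and transition proteins among them, were higher in cKO, with a summed 7921 to 8757 TPM in WT and 29520.1 to 30994 TPM in cKO. All 10 Sertoli cell markers were lower (375 to 442 TPM against 96.5 to 104 TPM), as were 7 of 8 Leydig cell markers (82.9 to 98.1 TPM against 9.14 to 10.9 TPM). The part of these shifts in the collagen results was not tested, and in bulk samples fewer cells of a type and less RNA per cell cannot be told apart.

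Most tested genes of any kind were called different between the genotypes, and so were most collagen genes, with more of these upward than downward in cKO. At an adjusted p of 0.05, 23 of the 43 tested genes (53.5%) were higher in cKO, where 36.5% of all 17643 tested genes were higher, and 12 (27.9%) were lower, where 37.5% of all tested genes were lower. The median log2 fold change was 0.72 over the collagen genes and -0.02 over all genes tested, and the collagen median was 0.25 on log2(TPM + 1) and 0.27 on that scale after rescaling to the listed genes. A rise of at least 1 on the log2 scale was called for 17 collagen genes (39.5%, against 20.6% of all tested genes) and a fall of that size for 7 (16.3%, against 16% of all tested genes). The median absolute log2 fold change was 1.18 over the collagen genes and 0.76 over all genes. Col9a2, a cartilage FACIT chain, had 0 to 3 counts per library and is given no fold.

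**Figure D1:**
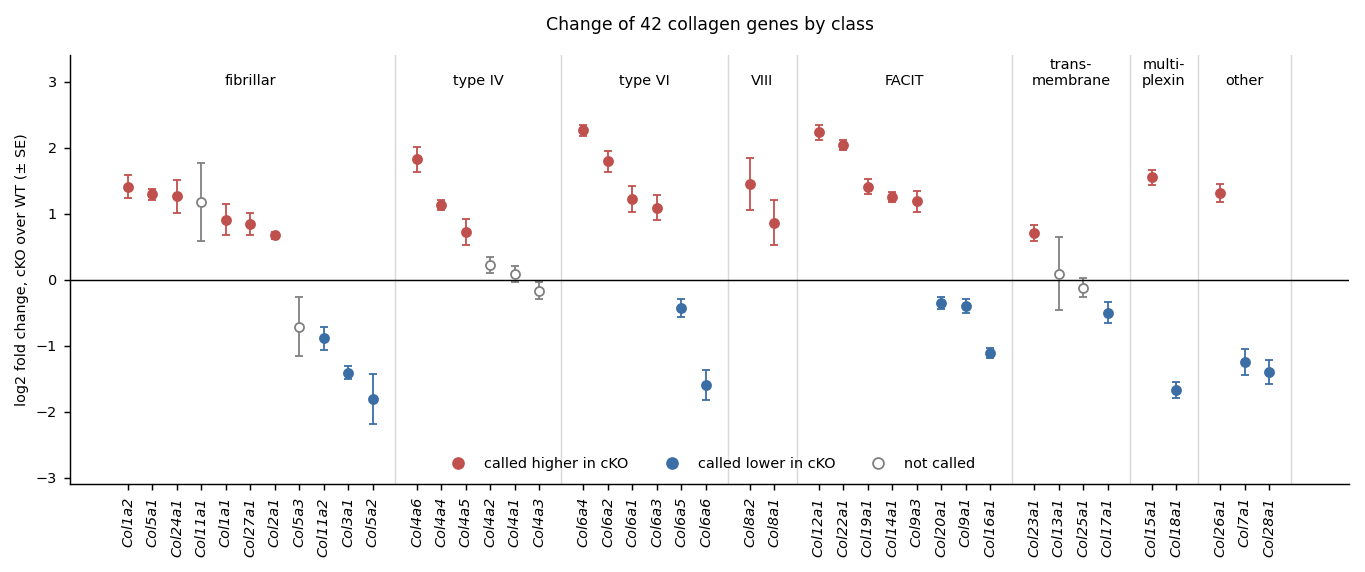
The vertical axis gives the log2 fold change of cKO over WT with its SE, each point is 1 collagen gene and genes are grouped by class along the horizontal axis, with filled points for those called at an adjusted p of 0.05. Type IV has 3 called points, all above 0, whereas the fibrillar, type VI and FACIT classes hold called points on both sides of 0.

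The set is dominated by a pair of FACIT genes. Summed over the 44 genes, collagen RNA amounted to 327, 370.5, 372 and 278 TPM in WT and to 591, 625, 611 and 615 TPM in cKO. In CPM, which does not divide by transcript length, the sum rose less, from 499 to 643 in WT to 774 to 798 in cKO. Col22a1 and Col16a1 together made up 66.9% to 69.9% of the TPM sum in WT and 73.4% to 73.9% in cKO. Without them the other 42 genes summed to 90.9 to 123 TPM in WT and 156 to 165 TPM in cKO. Only 5 genes averaged 10 TPM or more in WT (Col16a1, Col22a1, Col20a1, Col3a1 and Col2a1), and 7 did so in cKO, where Col3a1 dropped out and Col6a4, Col5a1 and Col15a1 came in. The listed genes together summed to 780735 to 811443 TPM in WT and 880901 to 886412 TPM in cKO, so that TPM values of a gene with an unchanged share are somewhat higher in cKO. At the other end, 20 of the 44 genes averaged under 1 TPM in WT and 17 in cKO.

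The FACIT class had 5 genes higher (55.6%) and 3 lower (33.3%) of 9 tested, beside 36.5% and 37.5% of all tested genes. It held the 2 genes with the largest differences in TPM, Col22a1 and Col16a1. Col22a1, which encodes a collagen of tissue junctions, was at 66.9, 79.5, 79.9 and 62.3 CPM in WT and at 289, 301, 296 and 296 CPM in cKO. All 4 cKO libraries lay above all 4 WT libraries, a log2 fold change of 2.04 ± 0.07 (4.1-fold; adjusted p = 4.28e-12). In TPM, the scale on which genes can be ranked, Col22a1 rose from 97.0 ± 14 (SD, n = 4) to 378 ± 8.28 and passed Col16a1 as the most abundant collagen transcript.

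Col16a1, a FACIT collagen of fibroblast and smooth muscle matrices, moved the opposite way. It was at 256, 288, 269.9 and 210.5 CPM in WT and at 114, 116, 119 and 127 CPM in cKO, and the ranges did not overlap. The log2 fold change was -1.11 ± 0.08 (adjusted p = 1.21e-08), and its level went from 133 ± 19.1 to 71.4 ± 3.4 TPM. Thus the leading pair exchanged ranks between the genotypes.

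Col12a1, a FACIT collagen bound to type I fibrils, was at 5.54, 4.07, 5.97 and 4.14 CPM in WT and at 24.8, 20.6, 23.9 and 22.7 CPM in cKO. This 4.68-fold rise (log2 fold change 2.23 ± 0.11, adjusted p = 2.31e-10) left every cKO library above every WT library. Col19a1, a minor FACIT collagen, had 2.62, 3.02, 2.96 and 2.37 CPM in WT and 7.37, 7.31, 7.03 and 7.52 CPM in cKO, again without overlap (log2 fold change 1.41 ± 0.11, adjusted p = 3.01e-08). Col14a1, which binds fibril surfaces, rose by 1.25 ± 0.07. Of the type IX chains, Col9a3 rose by 1.19 ± 0.16 and Col9a1 fell by 0.40 ± 0.10. The Col9a3 gene overlaps Tcfl5 on the other strand, and Tcfl5, at 371 to 566 CPM in the 8 libraries, was lower in cKO (log2 fold change -0.50 ± 0.05); whether the counting used strand is not given in the sources used here.

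Col20a1, next after that pair by mean TPM in both genotypes, showed a direction that depended on how the level was measured. In CPM it was at 37.3, 38.0, 41.1 and 30.2 in WT and at 25.6, 28.5, 28.8 and 31.9 in cKO, and the lowest WT library lay within the cKO range. On counts it was called lower (log2 fold change -0.36 ± 0.09, adjusted p = 0.00265). With the average transcript length of each library entered as an offset it was called higher (0.77 ± 0.10, adjusted p = 2.29e-05), as it was in TPM, which went from 18.2 ± 2.83 to 29.1 ± 3.6.

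**Figure D2:**
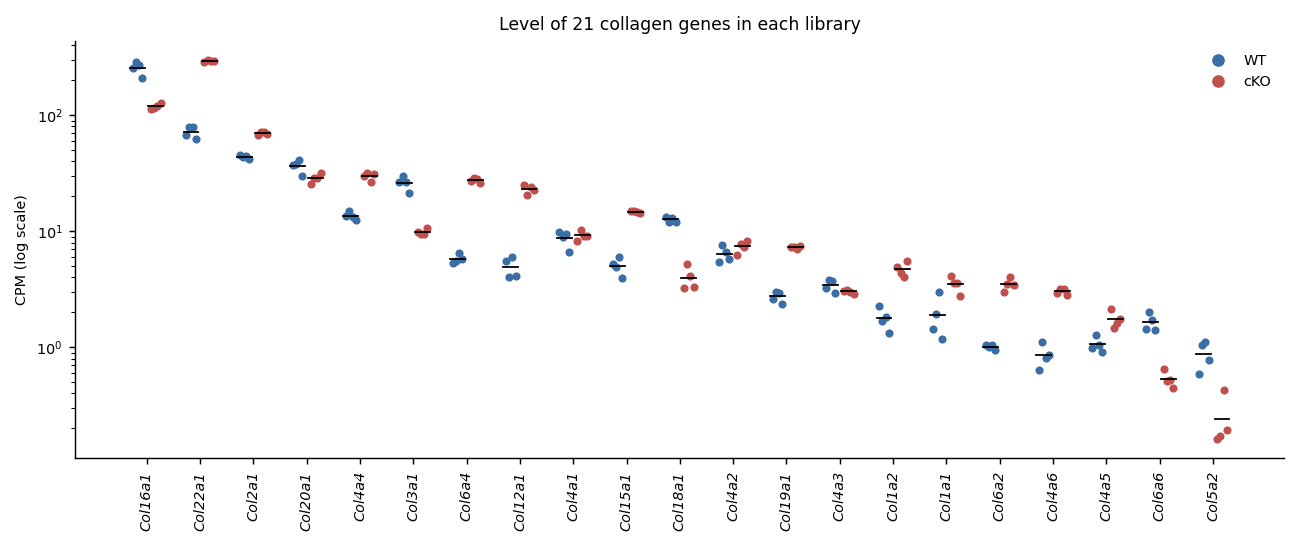
Each point is 1 library and the vertical axis gives CPM on a log scale, with WT and cKO side by side for 21 collagen genes and a bar at the mean of 4 libraries. Col22a1 lies at 62.3 to 79.9 CPM in WT and 289 to 301 CPM in cKO, while Col4a1, Col4a2 and Col4a3 overlap between genotypes.

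In the fibrillar class, 6 of 11 tested genes were higher (54.5%) and 3 lower (27.3%), beside 36.5% and 37.5% of all tested genes. The class median log2 fold change was 0.84. Type I collagen, the main fibre protein of skin and bone, is built from 2 chains of Col1a1 and 1 of Col1a2. Col1a2 was at 2.28, 1.69, 1.81 and 1.32 CPM in WT and at 4.95, 4.34, 4.02 and 5.59 CPM in cKO, with no overlap (log2 fold change 1.41 ± 0.17, adjusted p = 3.99e-06). Col1a1 was at 1.43, 1.92, 3.01 and 1.18 CPM in WT and at 4.09, 3.6, 3.59 and 2.76 CPM in cKO. One WT library reached the cKO range, and the call (0.91 ± 0.24, adjusted p = 0.00362) was lost once transcript length was taken into account (0.65 ± 0.32, adjusted p = 0.0937).

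Col3a1, the gene of type III collagen, which accompanies type I in pliable tissues, fell where Col1a2 rose. Col3a1 was at 26.4, 30.0, 26.7 and 21.3 CPM in WT and at 9.85, 9.48, 9.38 and 10.7 CPM in cKO. Every WT library exceeded every cKO library, and the log2 fold change was -1.41 ± 0.10 (adjusted p = 7.76e-09), or -2.0 ± 0.14 with length offsets. Its neighbour Col5a2, which lies 24624 bases away on the other strand of chromosome 1 and encodes a chain of the fibril-nucleating type V collagen, had 0.594, 1.05, 1.1 and 0.773 CPM in WT and 0.161, 0.171, 0.431 and 0.193 CPM in cKO. It fell by 1.81 ± 0.38 on the log2 scale (adjusted p = 5.78e-04) without overlap, although on only 3 to 23 counts per library.

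The partner chain Col5a1 rose by 1.29 ± 0.09, from 13.8 ± 2.17 to 33.6 ± 1.44 CPM, and the remaining type V chain Col5a3 was not called (-0.71 ± 0.44). Col2a1, the cartilage fibril collagen, was at 45.3, 44.0, 44.6 and 42.2 CPM in WT and at 68.1, 72.1, 71.0 and 68.8 CPM in cKO, a 1.59-fold rise with no overlap (log2 fold change 0.67 ± 0.05, adjusted p = 7.92e-09). Col24a1 and Col27a1, the late-described fibrillar genes, rose by 1.26 ± 0.25 and 0.84 ± 0.17, Col11a2 fell by 0.89 ± 0.17 and Col11a1 was not called (1.18 ± 0.59).

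Type IV collagen consists of 6 genes in 3 head-to-head pairs. Only 3 of the genes (50%) were called, each higher in cKO, beside 36.5% of all tested genes called higher and 37.5% lower. Col4a1, the ubiquitous basement membrane chain, was at 9.8, 8.92, 9.48 and 6.69 CPM in WT and at 8.29, 10.3, 9.14 and 9.06 CPM in cKO. Its partner Col4a2, whose gene overlaps that of Col4a1 by 85 bases on chromosome 8, was at 5.39, 7.68, 6.57 and 5.73 CPM in WT and at 6.3, 7.76, 7.27 and 8.29 CPM in cKO. Both overlapped between genotypes and neither was called (0.08 ± 0.12 and 0.22 ± 0.12, adjusted p = 0.563 and 0.131), although Col4a2 was called higher without WT replicate 2 (0.32, adjusted p = 0.0291).

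Of the chromosome 1 pair, which encodes chains of the mature kidney filter and shares 114 bases of gene span, only the minus-strand gene was called. Col4a4 was at 13.6, 14.9, 13.3 and 12.5 CPM in WT and at 29.8, 31.6, 26.8 and 30.9 CPM in cKO, with no overlap (log2 fold change 1.13 ± 0.07, adjusted p = 3.41e-09). Col4a3 was at 3.22, 3.8, 3.76 and 2.91 CPM in WT and at 3.07, 3.14, 3.01 and 2.89 CPM in cKO, which overlapped (-0.17 ± 0.13, adjusted p = 0.256). The log2 ratio of Col4a4 to Col4a3 counts went from 1.98 ± 0.13 (SD, n = 4) to 3.28 ± 0.11. The exact two-sided permutation test gave p = 0.0286, the smallest that 4 against 4 libraries allow. Over the 7 pairs of chains compared in this way, which were chosen after their values were seen, the adjusted value was 0.0667. No difference in ratio was detected for Col4a2 to Col4a1 (0.14, exact permutation p = 0.457), Col3a1 to Col5a2 (0.43, p = 0.371) or Col1a2 to Col1a1 (0.45, p = 0.286), and Col6a2 to Col6a1 gave 0.58 (p = 0.0571).

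Both genes of the X-linked pair, whose chromosome is normally silenced at this stage by meiotic sex chromosome inactivation, were called higher. The part of that silencing in their rise was not tested. Col4a6 was at 0.643, 1.1, 0.803 and 0.864 CPM in WT and at 2.91, 3.2, 3.21 and 2.83 CPM in cKO, a 3.53-fold rise (log2 fold change 1.82 ± 0.19, adjusted p = 4.9e-07). Col4a5, the chain altered in X-linked Alport disease, was at 0.99, 1.28, 1.05 and 0.91 CPM in WT and at 2.15, 1.48, 1.63 and 1.74 CPM in cKO (0.72 ± 0.20, adjusted p = 0.00497). Neither overlapped between genotypes, and the log2 ratio of Col4a6 to Col4a5 went from -0.32 ± 0.23 to 0.80 ± 0.30 (exact permutation p = 0.0286, adjusted 0.0667). On log2(TPM + 1) the Col4a5 difference was not called (0.17, limma adjusted p = 0.0596).

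The pair is divided by 1274 bases, and the flanks on either side are shown because both genes moved. Each line is RefSeq sequence of the GRCm38.p6 build that ends at the base before the annotated gene, written in the direction of that gene, with motif matches in capitals.
Col4a5: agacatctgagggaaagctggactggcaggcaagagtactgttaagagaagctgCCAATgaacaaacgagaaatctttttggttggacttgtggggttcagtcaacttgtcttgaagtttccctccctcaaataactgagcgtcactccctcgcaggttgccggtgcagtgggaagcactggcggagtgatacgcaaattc
Col4a6: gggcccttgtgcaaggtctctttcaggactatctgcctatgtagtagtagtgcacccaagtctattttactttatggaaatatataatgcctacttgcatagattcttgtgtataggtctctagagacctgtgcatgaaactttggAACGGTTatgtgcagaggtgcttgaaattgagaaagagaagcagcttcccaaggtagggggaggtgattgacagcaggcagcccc

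The Col4a5 flank covers chrX:141475169-141475369 on the plus strand and the Col4a6 flank covers chrX:141474096-141474326 on the minus strand. The motifs searched, on both strands, were the TATA box (TATAAA), the CCAAT box (CCAAT), the GC box (GGGCGG), the MYB motif (AACNGTT) and the cyclic AMP response element (TGACGTCA). The Col4a5 flank held a CCAAT box 147 bases before the gene and the Col4a6 flank held a MYB motif 85 bases before it. Neither printed flank held a GC box, but RefSeq windows of both genes did. Over the RefSeq windows of 250 bases before a start site, which covered 35 of the 44 collagen genes in 38 windows, the CCAAT box was found in 34.2% of collagen windows and 33.8% of all 32851 windows. The GC box was found in 57.9% against 32.7%, the TATA box in 13.2% against 12.4%, the MYB motif in 2.6% against 3.8% and the cyclic AMP response element in 0 collagen windows against 1.5%. The median G and C content was 59.0% in collagen windows and 52.4% in all.

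In type VI collagen every chain was called, 4 higher and 2 lower (66.7% and 33.3%, beside 36.5% and 37.5% of all tested genes). The classical chains Col6a1, Col6a2 and Col6a3, which make up the ubiquitous beaded microfilament, all rose. Col6a2 was at 1.04, 1.01, 1.05 and 0.955 CPM in WT and at 3.01, 3.48, 4.07 and 3.47 CPM in cKO, without overlap (log2 fold change 1.79 ± 0.16, adjusted p = 1.54e-07). Col6a1, 85161 bases away on the same strand of chromosome 10, rose by 1.22 ± 0.20 and Col6a3 by 1.09 ± 0.19.

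The more recently described chains lie in a row on chromosome 9 in the order Col6a6, Col6a5 and Col6a4, all on the minus strand, and moved in opposite directions. Col6a4 was at 5.34, 5.49, 6.52 and 5.73 CPM in WT and at 27.1, 28.9, 28.4 and 26.3 CPM in cKO. With a log2 fold change of 2.26 ± 0.08 (4.8-fold; adjusted p = 2.08e-12), no overlap and a rise from 4.92 ± 0.447 to 25.1 ± 1.52 TPM, it showed the largest rise of the 43 genes on counts. Col6a6, at 1.43, 2.01, 1.71 and 1.41 CPM in WT and 0.646, 0.514, 0.526 and 0.45 CPM in cKO, fell by 1.60 ± 0.23 (adjusted p = 2.06e-05). Col6a5 fell by 0.43 ± 0.14 on counts (adjusted p = 0.0112) but was not called with length offsets (-0.16 ± 0.20, adjusted p = 0.496). The log2 ratio of Col6a4 to its neighbour Col6a5 rose from 0.41 ± 0.17 to 3.09 ± 0.21 (exact permutation p = 0.0286, adjusted 0.0667).

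The 2 multiplexins, basement membrane zone collagens that carry chondroitin or heparan sulphate chains and release endostatin-type fragments, moved apart. Col15a1 was at 5.24, 4.89, 6.02 and 3.96 CPM in WT and at 15.0, 14.9, 14.6 and 14.3 CPM in cKO (log2 fold change 1.55 ± 0.11, adjusted p = 5.31e-09). Col18a1 was at 13.4, 12, 13.1 and 12.1 CPM in WT and at 3.23, 5.2, 4.12 and 3.34 CPM in cKO (-1.67 ± 0.12, adjusted p = 1.62e-08). Neither gene overlapped between genotypes. In TPM, Col15a1 was at 3.62 ± 1.05 and Col18a1 at 4.08 ± 0.55 in WT, where the ranges of the pair overlapped, and at 11.1 ± 1.63 and 1.28 ± 0.124 in cKO, where they did not.

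Among the rest, Col7a1, the anchoring fibril collagen of skin, fell by 1.25 ± 0.20 and Col28a1 by 1.40 ± 0.18, whereas Col26a1, first found in testis and ovary, rose by 1.31 ± 0.14. With length offsets the rise of Col26a1 was 1.10 ± 0.36 (adjusted p = 0.0161). Its TPM overlapped between genotypes (1.97 to 3.44 in WT and 2.38 to 8.02 in cKO). The transmembrane collagens gave 1 rise (Col23a1, 0.71 ± 0.12), 1 fall (Col17a1 of hemidesmosomes, which fell by 0.50 ± 0.16) and 2 genes that were not called, Col13a1 (0.09 ± 0.55) and Col25a1 (-0.12 ± 0.15). The network chains Col8a2 and Col8a1 rose by 1.45 ± 0.40 and 0.86 ± 0.34, on 75 and 107 counts in all libraries together. The call of Col8a1 was lost with DESeq2 (adjusted p = 0.0623) and without any 1 of 5 libraries, WT replicates 1 and 2 or cKO replicates 2, 3 and 4 (adjusted p = 0.057 to 0.122).

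Because the deposited tables give both estimated counts and TPM, the average length of the transcripts that carried each gene's reads could be recovered in every library, from the ratio of the 2 values. For 9 of the 36 collagen genes with a mean of at least 20 counts, this length was under 50% of the longest annotated transcript in WT, and for 15 it was 90% or more. Thus Col4a2, Col4a4, Col6a1, Col2a1 and Col12a1 were read as full-length transcripts. Under 50% in WT were Col22a1 (12.8%), Col6a4 (23.8%), Col26a1 (30.5%), Col7a1 (34.2%) and Col6a5 (36.2%). So were Col15a1 (41.3%), Col3a1 (42.8%), Col25a1 (47.2%) and Col5a1 (47.7%). The annotation used for the comparison, GENCODE M21, is not the one the authors quantified against.

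For Col22a1 the length was 1105 to 1162 bases in WT and 1065 to 1086 in cKO, 12.8% and 12.2% of the 8809 bases of the coding transcript Col22a1-201. The non-coding Col22a1-203 has 1210 bases in 20 exons, at chr15:71904728-71954374, and carries the glycine stretch printed above. Genes with 1 annotated transcript of 1000 to 1400 bases came out at 87.8% to 93.8% of their annotated length, so lengths of this size read slightly short. For Col6a4 the length was 1523 to 2147 bases in WT and 1500 to 1544 in cKO, against 7371 bases for Col6a4-201, which holds the printed stretch. The non-coding Col6a4-203 has 1721 bases in 4 exons at the 3′ end of the gene (chr9:105989454-105998322), with no run of more than 3 glycine triplets. The counts of both genes were thus assigned on average to transcripts far shorter than the full-length coding ones.

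Between genotypes, the average transcript length was called different for 5 of the 36 genes (limma on log2 length, adjusted p of 0.05), all shorter in cKO, where 12.3% of 14123 genes tested were called shorter and 2.97% longer. Col20a1 was at 3264, 2978, 3048 and 2961 bases in WT and at 1418, 1332, 1375 and 1326 bases in cKO, a log2 difference of -1.17 ± 0.04 (adjusted p = 1.24e-05). Col25a1, an amyloid plaque component in brain, was at 2896, 4291, 3079 and 3245 bases in WT and at 1623, 1558, 1500 and 1600 bases in cKO (-1.09 ± 0.12, adjusted p = 0.0015). In both genes every cKO library was shorter than every WT library.

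Col16a1 was at 2768, 2979, 3040 and 2950 bases in WT and at 2307, 2241, 2295 and 2337 bases in cKO (-0.35 ± 0.03, adjusted p = 4.95e-04). Col12a1 and Col22a1 shortened by less than 0.1 on the log2 scale (-0.08 ± 0.02 and -0.07 ± 0.02, adjusted p = 0.0243 and 0.0228), but both calls were lost without WT replicate 4 or cKO replicate 1, 2 or 3, that of Col12a1 also without WT replicate 1 and that of Col22a1 also without WT replicate 2 (adjusted p = 0.0525 to 0.0694). The Col3a1 length went the other way, from 2342 to 3286 bases in WT to 3170 to 4502 bases in cKO, and missed the threshold (0.56 ± 0.15, adjusted p = 0.0588). It passed when WT replicate 2 was left out (0.68, adjusted p = 0.0212).

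**Figure D3:**
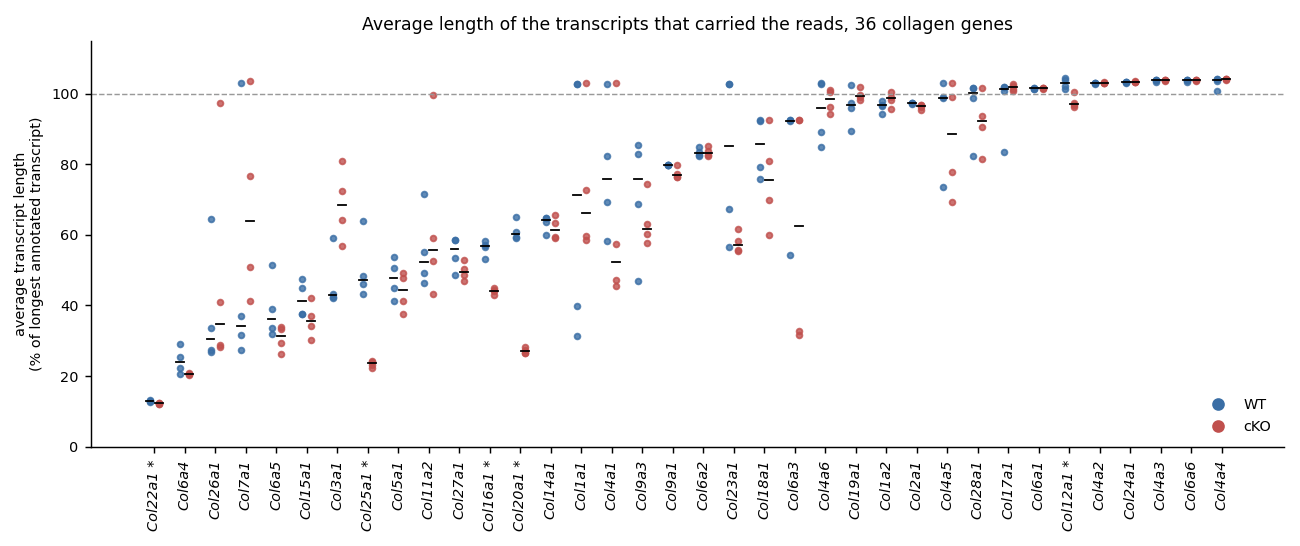
The vertical axis gives the recovered average transcript length as a percent of the longest annotated transcript for 36 collagen genes, with 1 point per library, a bar at the median of each genotype and an asterisk after genes called at an adjusted p of 0.05. Col20a1 and Col25a1 drop from medians of 60.1% and 47.2% in WT to 27.0% and 23.6% in cKO.

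Entering these lengths as offsets kept the direction of 40 of the 42 genes with a fold and turned it for Col20a1 and Col25a1. Col25a1 became 0.93 ± 0.19 (adjusted p = 8.14e-04). The falls of Col3a1 and Col7a1 grew to -2.0 ± 0.14 and -2.07 ± 0.51, and Col16a1 shrank to -0.79 ± 0.08. The recovered length of Col7a1 varied from 2527 to 9521 bases among WT libraries. In TPM it overlapped between genotypes (0.439 to 3.03 in WT and 0.272 to 0.73 in cKO). Col11a1 passed the threshold (1.99 ± 0.84, adjusted p = 0.0499) on 2 to 10 counts per library.

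**Figure D4:**
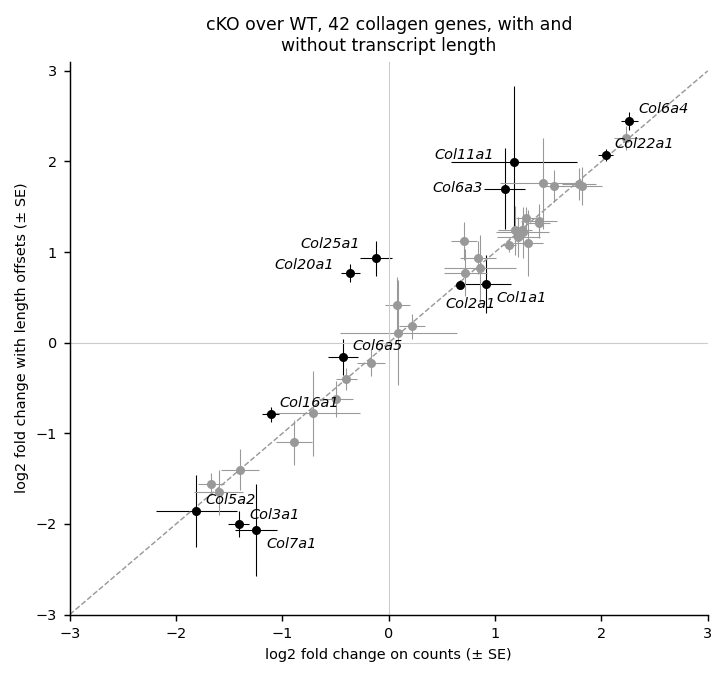
Each point is 1 of 42 collagen genes, with its log2 fold change on counts (horizontal axis) and with transcript length offsets (vertical axis), bars for the SE and a dashed line of equality. Col20a1 and Col25a1 lie above 0 on the vertical axis and below 0 on the horizontal axis.

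Genes whose products make, secrete, process and bind collagen did not shift to 1 side. Of 66 tested genes, 29 (43.9%) were higher in cKO and 22 (33.3%) lower, beside 36.5% and 37.5% of all genes, with a median log2 fold change of 0.22. The number called higher was 21 with length offsets, with 22 lower. It was 19 without TMM scaling, 16 on log2(TPM + 1) and 14 after rescaling to the listed genes, with 22, 22 and 23 called lower. Among the 15 enzymes of hydroxylation and glycosylation, 6 were higher and 5 lower. P3h2, a prolyl 3-hydroxylase of basement membrane collagens, rose from 0.778 ± 0.178 to 3.68 ± 0.503 CPM (log2 fold change 2.24 ± 0.19), but by 1.45 ± 0.52 with length offsets (adjusted p = 0.0255), and its TPM overlapped between genotypes (0.257 to 2.33 in WT and 1.57 to 2.28 in cKO). P4ha3 rose by 1.75 ± 0.23, whereas P4ha1, a catalytic subunit of prolyl 4-hydroxylase, fell by 1.02 ± 0.10. Chaperones and export factors were lower for 5 of 8 and higher for 2. Fkbp14 fell from 11.0 ± 0.923 to 3.64 ± 0.379 CPM and Tmem131 from 93.2 ± 4.8 to 57.0 ± 2.44 CPM, while Fkbp10 rose from 5.88 ± 0.487 to 10.3 ± 0.689 CPM.

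Of 8 genes for propeptide processing, 5 were higher (62.5%) and 2 lower (25%), beside 36.5% and 37.5% of all tested genes. The N-propeptide protease Adamts3 rose by 2.53 ± 0.26, the enhancer Pcolce2 by 2.48 ± 0.19 and the C-propeptide protease Bmp1 by 1.51 ± 0.20. Lysyl oxidases, which cross-link the fibres, were higher for 3 of 5. Loxl2 rose by 0.53 ± 0.12 without overlap, whereas the groups overlapped for Loxl1, whose call was lost with length offsets (0.18 ± 0.09, adjusted p = 0.0986), and for Loxl3, at 4 to 14 counts per library. Loxl4 fell, from 16 to 21 counts per library in WT to 1 to 3 in cKO. Among 10 receptors, 4 were higher and 3 lower. Of the 4 alpha chains of collagen-binding integrins, Itga1, Itga2 and Itga11 rose by 1.77 ± 0.07, 2.06 ± 0.15 and 1.68 ± 0.16, and Itga10 fell by 1.18 ± 0.20. Lair1, an inhibitory collagen receptor of leukocytes, fell by 2.50 ± 0.15, from 22.6 ± 4.47 to 4.01 ± 0.604 CPM.

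Of 7 listed genes for degradation, 4 were tested, with Mmp14, a membrane-bound collagenase, lower by 0.80 ± 0.10. Ctsk (cathepsin K), at 6 to 24 counts per library with overlapping groups, was called higher (0.92 ± 0.39, adjusted p = 0.048) but not with length offsets (0.88, adjusted p = 0.0794). The 16 partners of type IV collagen in basement membranes were higher for 8 (50%) and lower for 5 (31.2%), beside 36.5% and 37.5% of all tested genes. The laminin chain Lamb3 rose by 2.31 ± 0.10 and Lamc3 by 1.51 ± 0.15, whereas Lama1 fell by 1.93 ± 0.14.

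Whereas Sertoli and Leydig cell markers were lower, the lists for 4 other somatic cell types each held more genes called higher than lower in cKO. The shares called higher were 62.5% for peritubular myoid, 60% for stromal, 70% for macrophage and 44.4% for endothelial markers, beside 36.5% of all tested genes. In the same order, 25%, 20%, 10% and 11.1% were called lower, beside 37.5% of all tested genes. The endothelial median log2 fold change was -0.11. Peritubular myoid markers were higher for 5 of 8 and lower for 2, and their sum of 107 to 121 TPM in WT and 264 to 285 TPM in cKO came mostly from a single gene, Actg2, at 55.8 to 63.6 TPM in WT and 230.3 to 251 TPM in cKO. Without Actg2 the other 7 summed to 44.2 to 57.8 TPM in WT and to 31.9 to 35.1 TPM in cKO. Stromal fibroblast markers were higher for 6 of 10, among them Dcn (1.81 to 2.38 TPM against 7.91 to 9.56 TPM), and lower for 2, Sparc and Fbln1. Their sum went from 118 to 145 TPM in WT to 71.6 to 78.7 TPM in cKO, but without Sparc, at 92.6 to 109 TPM in WT and 28.9 to 30.8 TPM in cKO, the other 9 summed to 24.8 to 36.7 TPM in WT and to 42.7 to 48.3 TPM in cKO. Endothelial markers were higher for 4 of 9 and lower for 1, with sums of 8.21 to 10.9 and 9.13 to 10.3 TPM, and macrophage markers were higher for 7 of 10 and lower for 1, with sums of 12.3 to 13.9 and 14.3 to 17.2 TPM. In CPM the endothelial sum was 23.5 to 27.2 in WT and 31.4 to 34.2 in cKO. The macrophage sum was 28.7 to 32.1 CPM in WT and 20.4 to 23.4 CPM in cKO, the opposite direction to TPM. Without Mrc1, the macrophage marker that was lower, the other 9 summed to 5.47 to 7.02 TPM in WT and to 12.6 to 15.6 TPM in cKO. Of 10 spermatogonial markers, 9 were higher, among them Kit (log2 fold change 0.98 ± 0.06) and Sohlh2 (1.16 ± 0.07), and 1, Id4, was lower (-2.65), with sums of 129 to 140.5 and 139 to 149.7 TPM. No marker of the 4 somatic lists was at 0 in every library, and their part in the collagen changes was not tested.

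**Figure D5:**
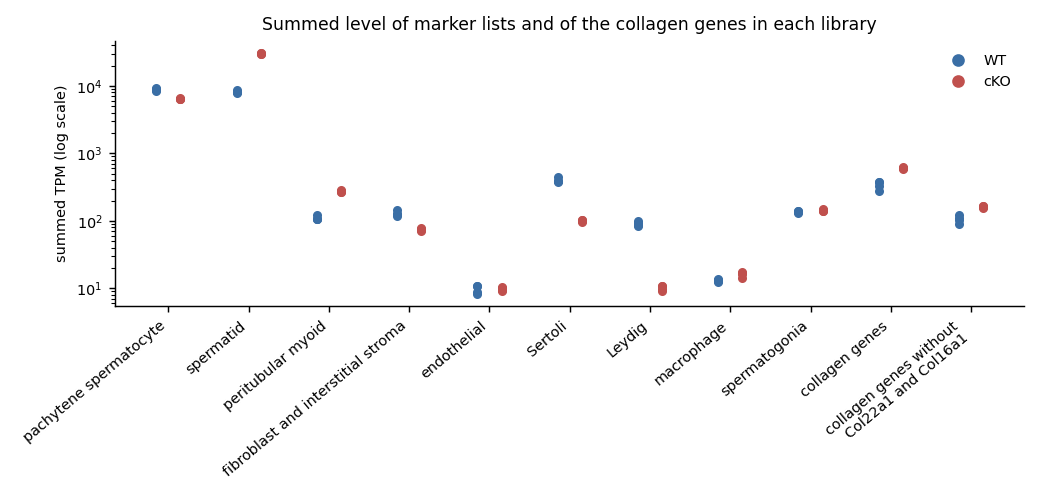
Each point is 1 library and the vertical axis gives summed TPM on a log scale for 9 marker lists, for all 44 collagen genes and for the 42 left without Col22a1 and Col16a1. Spermatid sums rise and Sertoli and Leydig sums fall from WT to cKO, while the collagen sum goes from 278 to 372 TPM to 591 to 625 TPM.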

How the data were processed

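RNA-seq libraries of 50 bp paired-end reads (poly(A)-selected, RNA integrity number over 7), 4 WT and 4 cKO, were made by the study from frozen cell pellets. The authors quantified transcripts with Salmon, summarised them by gene on the mm10 known-gene annotation with tximport, and deposited estimated counts and TPM per gene; versions and strand setting are not given in the sources used here. A deposited list of the authors' own differential expression values was not used. Entrez identifiers were given RefSeq symbols, which matched 21036 of 21058.

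Estimated counts were rounded, genes with at least 10 counts over the 8 libraries were kept (17643), and genotype was tested with edgeR 4.0.16 (TMM, quasi-likelihood, R 4.3.3), with Benjamini-Hochberg adjustment over all genes tested and a threshold of 0.05. CPM (counts scaled to a common library total) use TMM-scaled library sizes. Average transcript length is counts divided by TPM, scaled on 254 genes with 1 annotated transcript of 2000 to 6000 bases, for which 99.3% of values came within 10% of the annotated length, and was tested with limma 3.58.1 on log2 length for genes with a mean of at least 20 counts; this test was added after seeing the data. Ratios of 2 chains used counts plus 0.5. Scripts were tested on simulated data. No replicate pair agreed within sampling noise (chi-square per degree of freedom 1.71 to 18). Totals of 15850961 to 22044507 counts limit low genes.

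Genes given with full values were the 12 called members with the largest change and a mean of at least 10 counts, the 6 highest by TPM, all type IV members, Col1a1, Col1a2 and Col3a1, and up to 3 per pathway group. Members and lists were chosen with earlier results of these data known. Alternatives were DESeq2 1.42.0, other scaling, other filters, length offsets, limma on log2(TPM + 1) and log2(TPM + 0.1), a threshold of 0.01, a replicate block and each library left out.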

Additional observations from a re-analysis of the deposited data

Results flagged for a closer look

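In 2 of the 86 groups of 4 libraries examined for the 43 tested genes, 1 library stood apart from the other 3 by a gap large relative to the group's range; chance gives about 1 in 20 groups, or 4.3. For Col5a2, cKO replicate 3 was high at 0.431 CPM, against 0.161 to 0.193 CPM in the other cKO libraries (gap over range 0.884). For Col6a5, WT replicate 2 was low at 3.57 CPM, against 4.55 to 4.67 CPM in the other WT libraries (gap over range 0.897).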

How the results depend on the processing

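Of the 35 called collagen genes, 28 kept their direction and their call under each of up to 20 alternatives; the exceptions were Col20a1, Col1a1, Col4a5, Col6a5, Col8a1, Col17a1 and Col26a1. The counts of collagen genes called higher and lower stayed within 21 to 24 and 10 to 12 in other settings, and within 22 to 23 and 12 to 13 when 1 library was left out. The median log2 fold change lay between 0.67 and 0.79 without 1 library, and moved to 0.84 with DESeq2 and length offsets, to 0.25 on log2(TPM + 1) and to 0.27 on the same scale after rescaling to listed genes, where a pseudocount of 1 compresses genes under 1 TPM. Pathway genes called higher numbered 29, but 19 without TMM, 16 on either log2(TPM) scale and 14 after rescaling, and 23 to 28 without 1 library; those called lower numbered 19 to 23 without 1 library. Without TMM the median of all genes shifted to -0.12. Col20a1 turned to 0.77 with length offsets, 0.80 with DESeq2 and length offsets, 0.67 and 0.65 on log2(TPM + 0.1) and log2(TPM + 1), and 0.51 after rescaling; Col25a1 turned to 0.93, 0.95, 0.78, 0.50 and 0.43 in the same order. Values near 0 that were not called also changed sign: Col13a1 (-0.01 on log2(TPM + 1), -0.04 after rescaling, -0.50 to 0.42 without 1 library), Col4a1 (-0.02 without TMM, -0.02 to 0.14 without 1 library) and Col4a2 (-0.04 after rescaling). Calls were gained for Col4a2 (0.32 without WT replicate 2), Col5a3 (-0.94 without WT replicate 4), Col11a1 (1.45 without cKO replicate 2, 1.99 with length offsets, 2.27 with DESeq2 and length offsets) and Col4a3 (-0.18 after rescaling). Calls of changed length fell from 5 to 3 at a threshold of 0.01 and ranged from 3 to 5 without 1 library, as Col12a1 and Col22a1 were lost; without cKO replicate 1 Col9a1 was gained (-0.06). Where no cause follows from the setting, the cause was not tested. Replicate numbers did not pair the libraries (correlations of deviations by number 0.202, 0.042, 0.0944 and -0.0917); a replicate block gave the same 23 and 12 calls. DESeq2 with length offsets, the rescaled TPM and the length settings were chosen after seeing the data. Genes under about 10 counts per library are limited by depth.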
